A study of Mus musculus with 45 samples.

Results

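Keratins, claudins and epithelial junction genes were followed in mouse induced pluripotent stem cell (iPSC) lines, which are somatic cells returned to a state like that of the early embryo. The group held 10 genes chosen by name: the keratins Krt8, Krt18 and Krt19, the claudins Cldn3, Cldn4, Cldn6 and Cldn7, the junction scaffold gene Tjp3, and the adhesion genes Cdh1 and Nectin4. All 10 were measured, with 13 of 22626 probe sets in a table of 33 arrays and 16 of 22626 in a table of 12 arrays. Lines were made with a secondary reprogramming system and grown in stem cell medium with serum and LIF on a layer of irradiated mouse fibroblasts, which preplating of the trypsinized cells was meant to remove. Mouse 2 gave lines from T cells, granulocytes of the bone marrow (Gra), B cells of the spleen and tail tip fibroblasts (TTF), each at passages 4, 10 and 16, and mouse 1 gave SMP lines (origin: skeletal muscle precursors) at passage 6 and Gra lines at passages 4 and 16. Each group held 3 clones, named clone 1 to 3. The sources used here give no strain, sex, age or batch, and they name no reprogramming factor; the culture conditions are given as the same for all groups. Because the clones on each side of a comparison came from 1 mouse, p-values cover the spread between clones, which may be technical, and not the spread between animals.

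Keratins 8, 18 and 19 form the intermediate filaments of simple epithelia, where a type II keratin such as keratin 8 pairs with a type I keratin such as keratin 18 or 19. Claudins are membrane proteins that build tight junction strands, Tjp3 encodes the scaffold ZO-3 beneath them, Cdh1 encodes E-cadherin of the adherens junction, and Nectin4 encodes an immunoglobulin-like adhesion molecule. Mouse pluripotent stem cells are epithelial in character and grow as compact colonies held by E-cadherin, and fibroblasts gain epithelial genes on the way to pluripotency.

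Several members lie beside each other in the mouse genome. In the RefSeq gene order, Krt8 and Krt18 were neighbours on chromosome 15, Cldn4 and Cldn3 were neighbours on chromosome 5, and Cldn6 lay beside Cldn9 on chromosome 17. RefSeq promoter windows (build GRCm38.p6, 250 bases before to 50 after a gene start) were found for 8 of the 10 genes. Krt8 and Krt18 are printed as the keratin pair whose levels moved together, Cldn4 as the 1 gene of these 8 with an AP-1 match, and Cldn7 as the member that fell most widely with passage. Capitals mark the motif matches of a search on both strands.
Krt8 promoter, chr15:102004293-102004592, minus strand: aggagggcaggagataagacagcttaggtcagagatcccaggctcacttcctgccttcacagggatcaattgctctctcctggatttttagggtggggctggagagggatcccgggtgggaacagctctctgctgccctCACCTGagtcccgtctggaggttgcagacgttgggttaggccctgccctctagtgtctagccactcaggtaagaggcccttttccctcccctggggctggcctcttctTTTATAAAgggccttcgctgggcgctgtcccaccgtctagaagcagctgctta
Krt18 promoter, chr15:102027966-102028265, plus strand: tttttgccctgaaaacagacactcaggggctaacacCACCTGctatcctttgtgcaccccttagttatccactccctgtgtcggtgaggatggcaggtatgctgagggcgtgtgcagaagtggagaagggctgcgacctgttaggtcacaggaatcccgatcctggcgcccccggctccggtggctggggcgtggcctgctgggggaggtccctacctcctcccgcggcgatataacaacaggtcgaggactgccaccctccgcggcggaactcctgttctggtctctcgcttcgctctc
Cldn4 promoter, chr5:134946885-134947184, minus strand: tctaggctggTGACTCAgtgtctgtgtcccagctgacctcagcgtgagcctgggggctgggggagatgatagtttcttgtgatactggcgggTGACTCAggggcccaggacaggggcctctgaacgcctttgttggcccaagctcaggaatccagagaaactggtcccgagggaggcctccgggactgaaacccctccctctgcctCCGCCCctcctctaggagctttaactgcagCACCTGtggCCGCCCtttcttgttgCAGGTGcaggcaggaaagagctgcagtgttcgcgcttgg
Cldn7 promoter, chr11:69965171-69965470, plus strand: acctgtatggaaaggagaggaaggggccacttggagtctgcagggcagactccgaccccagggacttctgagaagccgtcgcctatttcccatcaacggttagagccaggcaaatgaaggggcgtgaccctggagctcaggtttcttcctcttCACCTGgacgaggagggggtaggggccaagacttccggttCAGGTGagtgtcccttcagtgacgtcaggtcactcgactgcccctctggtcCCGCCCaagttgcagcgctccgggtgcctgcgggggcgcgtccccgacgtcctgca
The E-box CACCTG, of the type bound by Snail and Zeb repressors, was found in windows of 7 of the 8 genes, and in 20.2% of all 32851 promoter windows. Nectin4 was the member without it. These counts are by gene and the shares by window, and Cldn7 and Tjp3 had 2 windows each. The first window of Cldn7 held no match to any motif searched and is not printed. The GC box GGGCGG was found in 4 of the 8 genes (35.7% of all windows), the AP-1 motif TGANTCA in 1, Cldn4 with 2 matches (7.81%), and the TATA box TATAAA in 1, Krt8, where both strands of the same stretch matched (13.6%). The grainyhead-like motif AACCGGTT was in none of the 8 genes and in 0.146% of all windows. A match describes these letters in this window and was not tied to binding or to expression here.

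Values are the deposited RMA values on the log2 scale, so that a difference of 1 is 2-fold, and each table stands on its own scale. The table of 33 arrays held passages 4, 6 and 16 and the table of 12 arrays held passage 10. Differences were tested with limma over all 22626 probe sets of a table, and a gene was called at a Benjamini-Hochberg adjusted p under 0.05; errors of differences are standard errors (SE), errors of levels are SD with n = 3, and all adjusted p are two-sided values of that fit. The mean correlation of an array with the others of its group was 0.9206 for passage 16 clone 3 of the Gra lines of mouse 2, the lowest of all arrays. The lower and upper quartiles of that array were 4.98 and 8.472, against 4.48 and 8.797 for clone 1 and 4.411 and 8.816 for clone 2. Pluripotency markers averaged 11.02 to 11.51 over the group means of the first table, and 12.68 to 12.78 at passage 10. Fibroblast markers, which feeder cells would carry, averaged 6.64 to 7.74 and 7.99 to 9.04; their values are given beside the results they moved with. Overlap between groups was read for the 10 genes only. Its share over all probe sets was not counted, so a lack of overlap describes the clones and is no test. In such bulk samples a change in the share of cells that express a gene and a change in RNA per cell cannot be told apart.

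**Figure D1:**
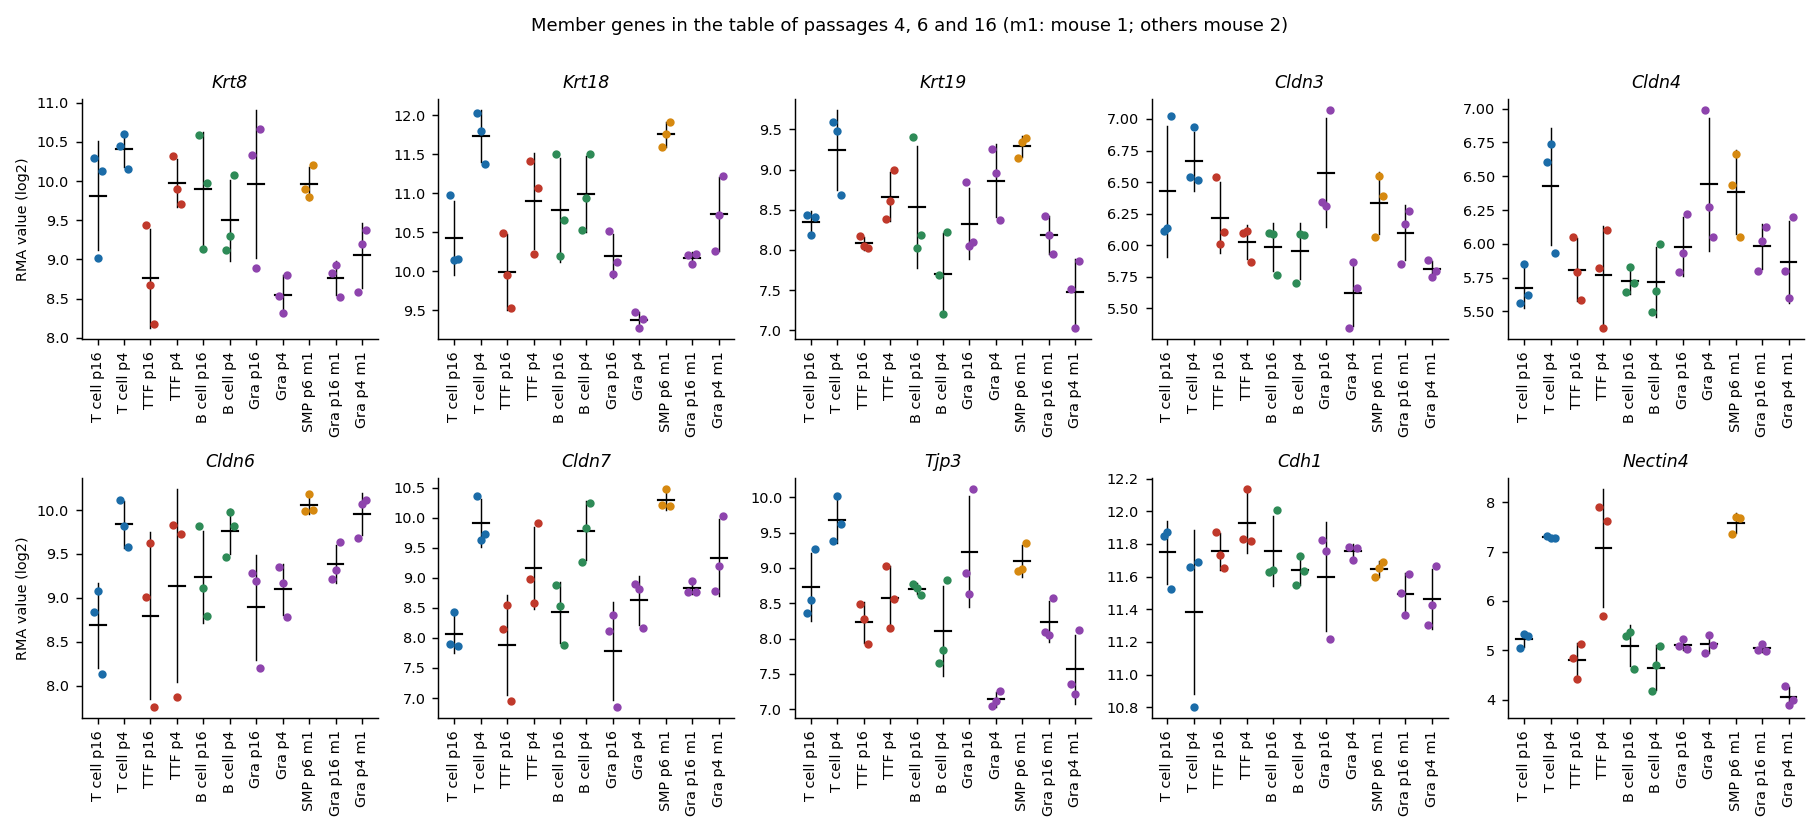
RMA values (log2) of the 10 genes on the 33 arrays of passages 4, 6 and 16, with 1 point per clone, the group mean as a horizontal line and the SD as a vertical line (n = 3). The T cell lines at passage 4 and the SMP lines stand high for Krt18, Tjp3 and Nectin4, the Gra lines of mouse 2 at passage 4 stand low for Krt8, Krt18 and Tjp3, and group means of Cdh1 stay between 11.38 and 11.93.

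At passage 4, T cell lines had the highest levels of most of these genes among the 4 origins of mouse 2. Of the 10 genes, 6 were higher in T cell lines than in the mean of the other 3 origins and 0 were lower: Krt8, Krt18, Krt19, Cldn3, Tjp3 and Nectin4. Over all probe sets, 10.3% were called higher and 7.11% lower in this comparison, and the median difference was 0.82 over the 10 genes and 0.00 over all probe sets. Tjp3 gave the largest difference. It was at 9.38, 10.03 and 9.62 in clones 1, 2 and 3 of the T cell lines, against a lowest value of 7.05, a median of 7.84 and a highest of 9.03 in the 9 other lines. All T cell clones thus lay above all others, by 1.74 ± 0.27 on average (adjusted p = 5.18e-05). Krt18 was at 12.03, 11.80 and 11.38 in the T cell lines, against a lowest of 9.27, a median of 10.53 and a highest of 11.51 in the others. B cell clone 3 (11.51) and TTF clone 1 (11.42) reached into the T cell range, and the difference was 1.31 ± 0.27 (adjusted p = 0.000903). Its partner Krt8 stood at 10.45, 10.61 and 10.16 in the T cell lines, against 8.31, 9.29 and 10.32 as the lowest, median and highest of the others, a difference of 1.06 ± 0.33 (adjusted p = 0.0233). Here TTF clone 1 lay within the T cell range. Krt19 differed by 0.84 ± 0.26 (adjusted p = 0.0235) and its ranges overlapped. The calls of Krt8 and Krt19 rested on T cell clones 1 and 2: adjusted p was 0.076 and 0.123 for Krt8, and 0.153 and 0.143 for Krt19, without the one or the other clone.

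Among the claudins, Cldn3 was at 6.54, 6.94 and 6.52 in T cell lines, against 5.35, 5.87 and 6.11 as the lowest, median and highest of the other lines. The groups did not overlap, with a difference of 0.80 ± 0.18 (adjusted p = 0.00288), although the further Cldn3 probe set was not called (adjusted p = 0.294). Cldn4, Cldn6 and Cldn7 differed by 0.45 ± 0.19, 0.51 ± 0.34 and 0.72 ± 0.33 and did not pass the test (adjusted p = 0.113, 0.363 and 0.152). Cdh1 was the member with the opposite sign, at -0.39 ± 0.15 (adjusted p = 0.0781). Its value was 10.80 in T cell clone 2, the lowest of all 33 arrays, and 11.66 and 11.69 in clones 1 and 3.

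Nectin4 split the lines of the first table into high and low ones. It was at 7.32, 7.29 and 7.29 in T cell lines at passage 4, at 7.90, 5.70 and 7.62 in TTF lines at passage 4, and at 7.35, 7.70 and 7.69 in SMP lines at passage 6. On every other array of that table it lay between 3.89 and 5.38. In T cell lines it was higher than the mean of the other origins by 1.68 ± 0.27 (adjusted p = 8.86e-05), and in TTF lines by 1.38 ± 0.27 (adjusted p = 0.000829), where it was the only member called, against 10% of all probe sets called higher, 9.57% lower and 19.6% in either direction. Without TTF clone 2, which at 5.70 stood apart from its group, the TTF difference was 2.07. A further probe set of Nectin4 was dim, with values from 3.14 to 4.15 in this table, and was also higher in TTF lines (0.30 ± 0.11, adjusted p = 0.0498).

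In Gra lines of mouse 2 the keratin pair and Tjp3 stood low at passage 4. There 6 of the 10 genes were lower than in the mean of the other 3 origins and 0 were higher: Krt8, Krt18, Cldn3, Cldn7, Tjp3 and Nectin4, while 11.8% of all probe sets were called lower, 9.72% higher and 21.5% in either direction. The median difference was -0.79 over the 10 genes and -0.02 over all probe sets. Each origin enters the mean that the others are set against, so these comparisons share arrays. Krt18 was at 9.47, 9.27 and 9.38 in Gra lines, against 10.22, 11.38 and 12.03 as the lowest, median and highest of the other 9 lines. No value overlapped, and the difference was -1.83 ± 0.27 (adjusted p = 2.13e-05). Krt8 was at 8.53, 8.31 and 8.80 in Gra lines, against 9.12, 10.08 and 10.61 in the others, again without overlap (-1.41 ± 0.33, adjusted p = 0.00251). Tjp3 was at 7.05, 7.12 and 7.26, against 7.65, 8.83 and 10.03, and also did not overlap (-1.65 ± 0.27, adjusted p = 7.9e-05). Krt19 was not part of this pattern, at 8.86 ± 0.45 in Gra lines.

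Nectin4 was lower in Gra lines (-1.21 ± 0.27, adjusted p = 0.00193), as was Cldn3 (-0.59 ± 0.18, adjusted p = 0.0209), both with overlapping ranges. The Nectin4 mean of Gra lines (5.13) lay above that of B cell lines (4.65). It lay below TTF (7.08) and T cell lines (7.3). The Nectin4 call thus rested on these high lines and does not set Gra lines below B cell lines. The Cldn3 call was lost without Gra clone 1 (adjusted p = 0.18) or clone 3 (0.0551), after quantile normalization (0.0775) and over the mean of its probe sets (0.0785). Cldn7 differed by -0.99 ± 0.33 (adjusted p = 0.0334), a call that ended without any 1 of 6 arrays: each of the Gra clones, TTF clone 3, T cell clone 1 or B cell clone 3, with the largest adjusted p of 0.201 without Gra clone 3. B cell lines had 2 members lower and 0 higher (5.2% and 4.49% of all probe sets, 9.68% in either direction). Krt19 was at 7.69, 7.20 and 8.22 in B cell lines, against 8.37, 8.96 and 9.59 as the lowest, median and highest of the others, without overlap, and the difference was -1.22 ± 0.26 (adjusted p = 0.00358, and 0.0692 without B cell clone 2). Nectin4 was the other, at -1.85 ± 0.27 (adjusted p = 0.000155).

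**Figure D2:**
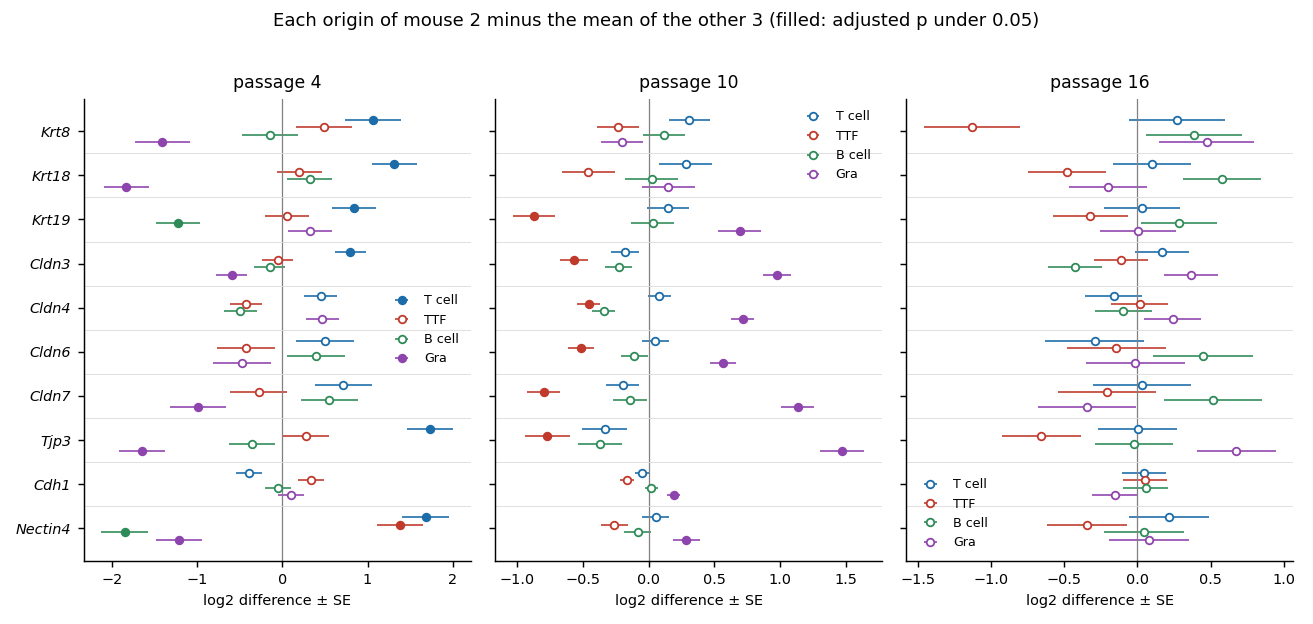
Log2 difference (± SE) of each origin of mouse 2 from the mean of the other 3, for each gene at passages 4, 10 and 16; filled points passed adjusted p under 0.05. At passage 4 filled points lie to the right for T cell lines (Tjp3 at 1.74) and to the left for Gra lines (Krt18 at -1.83), at passage 10 Gra lines lie to the right and TTF lines to the left, and at passage 16 no point is filled.

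Other epithelial genes outside the 10 were counted beside them. Of all probe sets at passage 4, 10.3% were called higher and 7.11% lower in T cell lines. The shares were 9.72% and 11.8% in Gra lines, 10% and 9.57% in TTF lines, and 4.49% and 5.2% in B cell lines. The small counts of Gra lines are not read as a result about these lists. Of 18 further epithelial surface and regulator genes, 9 were higher and 0 lower in T cell lines at passage 4, with the largest differences in the surface proteases Prss8 (1.47) and St14 (0.99), the transcription factor Elf3 (0.90) and the tricellular junction receptor Lsr (0.86). In Gra lines 3 of the 18 were lower and 0 higher: St14 (-0.98), Prss8 (-0.89) and the sorting adaptor subunit Ap1m2 (-0.70). The list of 14 other keratins had 4 higher in T cell lines, led by Krt7, a keratin of simple epithelia, at 1.62, and 2 lower in Gra lines, with Krt7 at -1.46. Of 14 other claudins, 0 were called in T cell lines and 2 were lower in Gra lines, Cldn15 (-1.05) and Cldn10 (-0.64). Junction genes were of either sign in T cell lines: of 14 other tight junction genes the polarity gene Crb3 was higher (1.00) and Magi1 (-0.83) and Tjp1 (-0.77), both scaffolds, were lower. Of 10 other adherens junction genes 2 were higher, Plekha7 (1.76) and Nectin2 (0.75), and Vcl, the actin linker vinculin, was lower (-0.77). Of 9 desmosome genes, 0 were higher and 2 lower in T cell lines, the desmosomal cadherin gene Dsc2 (-1.01) and the plakophilin gene Pkp4 (-0.63), and 1 was higher and 2 were lower in Gra lines. In TTF lines 4 of the 9 were higher and 0 lower: the plakin genes Ppl (1.34), Dsp (0.94) and Evpl (0.94), and Pkp1 (0.55). B cell lines had 2 lower, Dsp (-0.90) and Pkp1 (-0.64), and 0 higher.

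Fibroblast markers moved with the T cell result. Of 14 measured, 7 were higher in T cell lines at passage 4 and 0 lower, with Mgp at 1.84 and Col6a1 at 1.72, and their mean level was 7.62 to 7.84 over the T cell clones, against 6.53 to 7.11 over the clones of the other origins. In Gra lines 1 was higher and 2 were lower, and their mean was 7.05 ± 0.06 there. Their part in the result of the T cell lines was not tested. Among B cell lines, 7 of 12 extraembryonic endoderm markers were higher and 0 lower, and their part in the B cell differences was not tested.

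At passage 10, measured on the other platform, Gra lines had the highest levels of most of these genes. Of the 10 genes, 8 were higher in Gra lines than in the mean of the other 3 origins and 0 lower, where 16.6% of all probe sets were called higher and 15.2% lower. The median difference was 0.63 over the 10 genes and -0.02 over all probe sets. Tjp3 was at 8.50, 8.74 and 8.89 in Gra lines, against 6.69, 7.16 and 7.79 as the lowest, median and highest of the other 9 lines. The groups did not overlap, and the difference was 1.47 ± 0.17 (adjusted p = 0.000115). Cldn7 was at 10.38, 10.38 and 10.73 in Gra lines, against 8.98, 9.35 and 9.92 (1.13 ± 0.13, adjusted p = 9.47e-05). Cldn3 was at 8.58, 8.45 and 8.73, against 7.30, 7.53 and 7.97 (0.97 ± 0.11, adjusted p = 8.38e-05). For both, every Gra clone lay above every other line, as was so for Cldn4 (0.71 ± 0.09, adjusted p = 0.000143) and Cdh1 (0.19 ± 0.05, adjusted p = 0.0117). All 4 probe sets of Cldn3 gave differences between 0.97 and 1.08. Cldn6 (0.56 ± 0.10) and Krt19 (0.69 ± 0.16) were higher with overlapping ranges (adjusted p = 0.00114 and 0.00606). The small difference of Nectin4, 0.29 ± 0.10 on levels of 4.40 to 5.08, was at an adjusted p of 0.0494 and was lost in 9 of the fits without 1 array, up to 0.262 without Gra clone 3, and also with the clone number as a block (0.0802) and over the mean of its probe sets (0.159). Cdh1 was lost without Gra clone 1 (0.0571) or clone 3 (0.0508).

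Krt8 and Krt18 did not take part at passage 10. Krt8 was at 12.28, 11.54 and 12.17 in Gra lines, and the mean of the TTF lines was 11.97, of the B cell lines 12.23 and of the T cell lines 12.38. Krt18 was at 11.40, 10.40 and 11.19 in Gra lines, with means of 10.54, 10.90 and 11.10 in TTF, B cell and T cell lines. Clone 2 was the lowest Gra clone for both keratins.

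**Figure D3:**
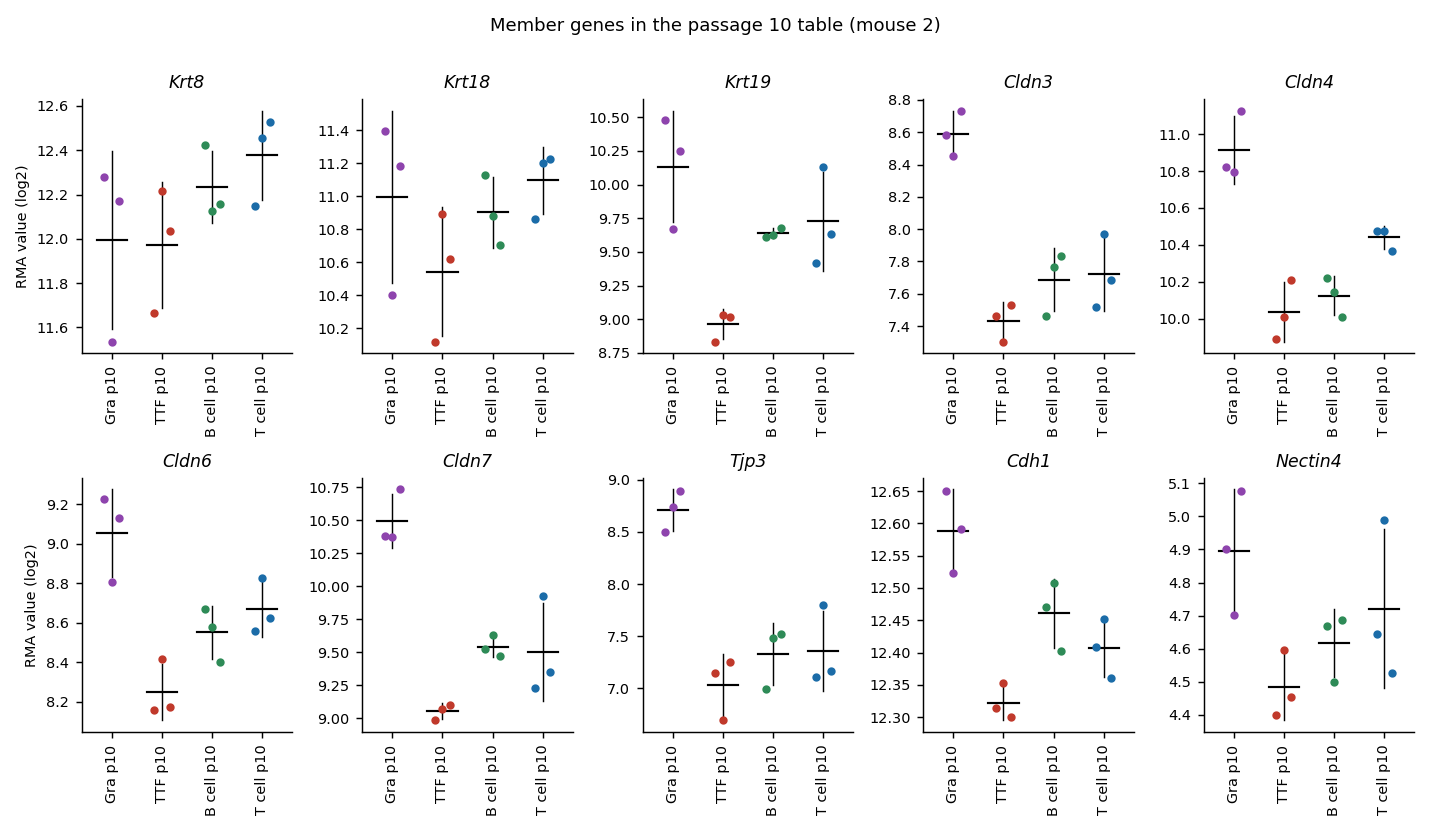
RMA values (log2) of the 10 genes on the 12 arrays of passage 10, with 1 point per clone, the mean as a horizontal line and the SD as a vertical line (n = 3). For Cldn3, Cldn4, Cldn7, Tjp3 and Cdh1 all Gra clones lie above all other clones, and TTF clones lie lowest for Krt19 and Cldn7.

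TTF lines were lowest at passage 10, with 6 of the 10 genes lower and 0 higher (5.97% and 4.4% of all probe sets) and all 10 differences negative. Krt19 was at 8.83, 9.03 and 9.02 in TTF lines, against 9.42, 9.67 and 10.48 as the lowest, median and highest of the others, a difference of -0.87 ± 0.16 without overlap (adjusted p = 0.011). Cldn7 was at 8.98, 9.07 and 9.10 in TTF lines, against 9.23, 9.63 and 10.73, again without overlap (-0.80 ± 0.13, adjusted p = 0.00662). Tjp3 (-0.77), Cldn3 (-0.57), Cldn6 (-0.51) and Cldn4 (-0.46) were lower with overlapping ranges. Only 2 of the 6 calls were kept without TTF clone 1, where Cldn4, Cldn6, Krt19 and Tjp3 had adjusted p of 0.0657, 0.0666, 0.0569 and 0.0612. Without TTF clone 2, Cldn3 (0.0776), Cldn4 (0.0719), Krt19 (0.0578) and Tjp3 (0.122) were lost. In B cell and T cell lines limma called 0 of the 10 genes, with 0.0398% and 0% of all probe sets called in either direction. At an unadjusted p under 0.05 the members were 1 and 0. Of all 22626 probe sets, 2424 and 3747 were under that p.

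Further epithelial genes and fibroblast markers changed in opposite directions at passage 10. Of 18 epithelial surface and regulator genes, 11 were higher and 2 lower in Gra lines, with Elf3 at 0.96, St14 at 0.87, Prss8 at 0.70 and Ap1m2 at 0.55, and in TTF lines 1 was higher and 6 were lower. Of 15 other tight junction genes, 9 were higher and 3 lower in Gra lines, led by Crb3 (0.72) and Marveld2 (0.63), which encodes tricellulin. Of 10 desmosome genes, 5 were higher and 0 lower in Gra lines, and 0 were higher and 3 lower in TTF lines. Krt7 was at 1.34 in Gra lines and -0.81 in TTF lines. Of 17 fibroblast markers, 12 were lower in Gra lines and 0 higher, and 13 were higher in TTF lines and 0 lower. Their mean level was 7.99 ± 0.03 in Gra lines and 9.04 ± 0.09 in TTF lines, and 8.42 ± 0.09 and 8.54 ± 0.23 in B cell and T cell lines. Among 12 mesenchymal genes 9 were lower in Gra lines, with the cadherin Cdh11 at -2.31, and 7 were higher in TTF lines, with Cdh11 at 1.69. The part of fibroblast cells in the differences at passage 10 was not tested.

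At passage 16 limma called 0 of the 10 genes in any origin of mouse 2. Called probe sets made up 0% of the table for TTF and for B cell lines. They made up 2.27% for T cell lines (0.707% higher, 1.56% lower) and 2.49% for Gra lines (1.53% higher, 0.959% lower). At an unadjusted p under 0.05 the members were 2, 2, 0 and 1 in TTF, B cell, T cell and Gra lines. Of all 22626 probe sets, 1564, 1433, 3335 and 6512 were under that p in the same order. The lowest adjusted p was that of Tjp3 in Gra lines (0.68 ± 0.27, adjusted p = 0.111). Tjp3 was at 8.93, 8.63 and 10.12 in Gra lines at passage 16, and without clone 2 of these lines its adjusted p was 0.0186. In T cell lines the difference from the other origins was 0.00 for Tjp3, 0.10 for Krt18 and 0.22 for Nectin4 at passage 16, against 1.74, 1.31 and 1.68 at passage 4. The dim further probe set of Nectin4 was higher in Gra lines there (0.44 ± 0.11, adjusted p = 0.0379), while the brighter one that stands for the gene was not called (adjusted p = 0.864). Values of the dim one ran from 3.70 to 4.15 over these Gra clones. The part of the shifted quartiles of clone 3 was not tested.

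Passage was therefore compared within each origin. In T cell lines 6 of the 10 genes fell between passage 4 and passage 16 and 0 rose (9.62% and 7.07% of all probe sets), with a median difference of -0.93 over the 10 genes and 0.05 over all probe sets. These arrays of passage 4 are the same as in the comparison of origins. Cldn7 was at 7.89, 8.43 and 7.87 at passage 16, against 10.36, 9.64 and 9.72 at passage 4, without overlap (-1.84 ± 0.41, adjusted p = 0.00243). Nectin4 was at 5.05, 5.34 and 5.28 at passage 16, against 7.32, 7.29 and 7.29 at passage 4 (-2.08 ± 0.33, adjusted p = 0.000113). Krt18 was at 10.97, 10.14 and 10.16 at passage 16, against 12.03, 11.80 and 11.38 at passage 4 (-1.31 ± 0.33, adjusted p = 0.00594). For each of these genes all clones of passage 16 lay below all clones of passage 4. Cldn4 (-0.75 ± 0.24, adjusted p = 0.0292), Tjp3 (-0.95 ± 0.33, 0.0463) and Krt19 (-0.90 ± 0.32, 0.0498) also fell without overlap, and these calls were close to the threshold. Tjp3 was lost without any 1 of 20 arrays, up to 0.186 without clone 2 at passage 4, Krt19 without any 1 of 19 arrays, up to 0.193 without clone 1 at passage 4, both after quantile normalization (0.0785 and 0.0669), and Cldn4 without clone 1 (0.112) or 2 (0.15) of passage 4 or clone 1 (0.0906) or 3 (0.079) of passage 16. In a fit to only the T cell arrays all 3 of these calls were lost (0.0724 for Cldn4, 0.0545 for Tjp3 and 0.0504 for Krt19). There 4 members were called, with Cldn6 added (-1.15, adjusted p = 0.0258). In the fit to all groups Cldn6 was not called. It too fell without overlap, from 9.84 ± 0.27 at passage 4 to 8.69 ± 0.49 at passage 16.

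Fibroblast markers fell in the same T cell lines: 6 of 14 were lower at passage 16 and 0 higher, and their mean was 6.70 ± 0.25 at passage 16 and 7.70 ± 0.13 at passage 4. Of 18 epithelial surface and regulator genes, 6 fell and 0 rose, with Prss8 at -1.44, the transcription factor Grhl2 at -1.21, the surface glycoprotein gene Cd24a at -1.13 and Lsr at -1.03. Krt7 was at -1.74. Whether the fibroblast markers bear on the fall of the members was not tested.

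The calls in the other origins follow, and their passage changes were not tested against one another. TTF lines had 2 members lower at passage 16 and 0 higher (5.47% and 4.83% of all probe sets). Nectin4 was at 4.85, 4.43 and 5.13 at passage 16, against 7.90, 5.70 and 7.62 at passage 4 (-2.27 ± 0.33, adjusted p = 5.51e-05), and no clones overlapped. In a fit to only the TTF arrays its adjusted p was 0.0603. Cldn7 was at 8.15, 8.56 and 6.95, against 8.98, 8.59 and 9.92 (-1.27 ± 0.41, adjusted p = 0.0449), a call lost without any 1 of 17 arrays and up to 0.288 without clone 3 at passage 16. In TTF lines 6 of 14 fibroblast markers were higher at passage 16 and 1 lower, with a mean of 7.27 ± 0.11 at passage 16 and 6.64 ± 0.12 at passage 4. The 2 called members fell over the same passages, and the part of these markers in their fall was not tested. B cell lines had 1 member lower and 0 higher (4% and 5% of all probe sets): Cldn7, at 8.88, 8.52 and 7.88 at passage 16, against 9.27, 9.84 and 10.25 at passage 4 (-1.36 ± 0.41, adjusted p = 0.0362). It did not overlap, and it was lost without clone 2 (0.107) or 3 (0.152) at passage 4 or clone 2 (0.0659) or 3 (0.218) at passage 16.

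In Gra lines of mouse 2, 3 members rose and 0 fell (18.3% and 16.3% of all probe sets, 34.6% in either direction). Tjp3 was at 8.93, 8.63 and 10.12 at passage 16, against 7.05, 7.12 and 7.26 at passage 4, without overlap (2.09 ± 0.33, adjusted p = 6.61e-05). Krt8 was at 10.33, 8.89 and 10.67, against 8.53, 8.31 and 8.80 (1.41 ± 0.40, adjusted p = 0.00891), and Cldn3 was at 6.34, 6.31 and 7.07, against 5.35, 5.86 and 5.66 (0.95 ± 0.22, adjusted p = 0.00243). Clone 3 of passage 16, the array least like its group, was the highest for all 3 genes. Without it Krt8 was at 1.06 (adjusted p = 0.0803) and 2 members were called, Tjp3 among them, and in a fit to only these arrays only Tjp3 was called. Of 12 extraembryonic endoderm markers 5 were higher at passage 16 in Gra lines of mouse 2 and 0 lower, with a mean of 6.12 ± 0.53 at passage 16 and 5.15 ± 0.11 at passage 4. Of 11 pluripotency markers 6 were lower and 0 higher, with means of 11.02 ± 0.40 and 11.51 ± 0.01, and the part of either in the members' rise was not tested. Gra lines of mouse 1 had 0 members called between the same passages by limma, with 0.888% of all probe sets called (0.566% higher, 0.323% lower). At an unadjusted p under 0.05 there were 2 members, and 2484 of all 22626 probe sets, in these lines. There Krt8 was at 8.83, 8.93 and 8.52 at passage 16, against 8.58, 9.20 and 9.38 at passage 4.

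**Figure D4:**
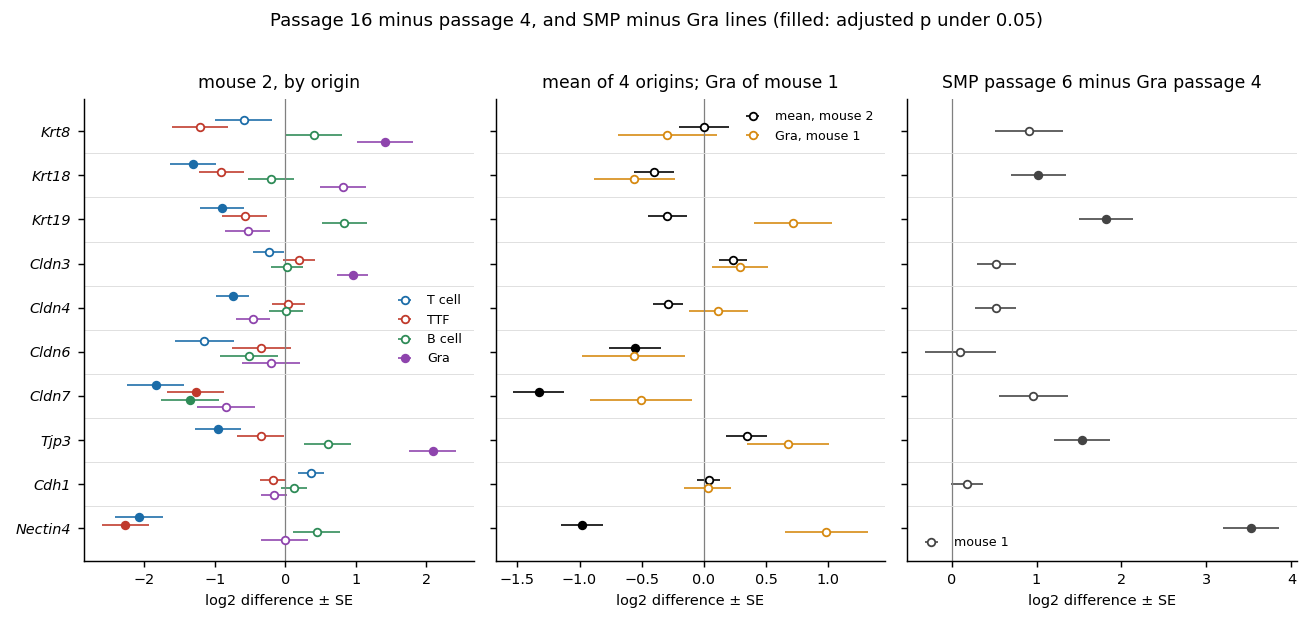
Log2 difference (± SE) of passage 16 minus passage 4 for each origin of mouse 2 (left), for their mean and for Gra lines of mouse 1 (middle), and of SMP minus Gra lines of mouse 1 (right); filled points passed adjusted p under 0.05. Cldn7 lies left of 0 in all 4 origins, Tjp3 runs from -0.95 in T cell lines to 2.09 in Gra lines, and all SMP differences lie right of 0, with Nectin4 at 3.52.

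Over the mean of the 4 origins of mouse 2, Cldn7 (-1.33 ± 0.20, adjusted p = 3.82e-05) and Nectin4 (-0.98 ± 0.17, adjusted p = 0.000121) fell, and Cldn6 was at -0.55 ± 0.21 (adjusted p = 0.046), which was lost without any 1 of 23 arrays, after quantile normalization (0.0534) and with only the groups compared in the fit (0.094). These were 3 members lower and 0 higher, where 14.4% of all probe sets were called lower, 15% higher and 29.4% in either direction. Nectin4 fell in 2 of the 4 origins, at -2.08 in T cell and -2.27 in TTF lines, and was not called in Gra (-0.01) or B cell lines (0.45). Cldn7 differences were negative in each origin, at -1.84 in T cell, -1.27 in TTF, -1.36 in B cell and -0.84 in Gra lines, the last not called (adjusted p = 0.104). Without TTF clone 2 at passage 4 the count over the mean was 5. A test of the difference itself set the passage change of T cell lines against the mean change of the other 3 origins. It called 3 members lower and 0 higher (9.34% and 5.65% of all probe sets): Tjp3 at -1.73 ± 0.38 (adjusted p = 0.00225), Nectin4 at -1.46 ± 0.39 (adjusted p = 0.00963) and Krt18 at -1.21 ± 0.38 (adjusted p = 0.0276). The call of Krt18 was lost without T cell clone 1 (0.0911) or 2 (0.067) at passage 4, or clone 2 (0.0949) or 3 (0.078) at passage 16.

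Mouse 1 allowed a further comparison of origins, between SMP lines at passage 6 and Gra lines at passage 4, in which passage differs as well. All 10 differences were positive, with a median of 0.94 against 0.04 over all probe sets, and 4 of the 10 genes were higher and 0 lower, where 10.1% of all probe sets were called higher, 10.6% lower and 20.6% in either direction. Nectin4 was at 7.35, 7.70 and 7.69 in SMP lines, against 4.28, 3.89 and 4.0 in Gra lines. This gap was the largest of any member in any comparison, at 3.52 ± 0.33 (adjusted p = 6.84e-08). Krt19 was at 9.14, 9.34 and 9.39 in SMP lines, against 7.52, 7.03 and 7.86 in Gra lines (1.82 ± 0.32, adjusted p = 0.000155). Tjp3 was at 8.96, 8.98 and 9.35, against 7.36, 7.21 and 8.12 (1.54 ± 0.33, adjusted p = 0.00128), and Krt18 at 11.59, 11.76 and 11.91, against 10.26, 10.72 and 11.21 (1.02 ± 0.33, adjusted p = 0.0254). SMP clones lay above all Gra clones for these genes and also for Krt8 (0.91 ± 0.40), Cldn7 (0.96 ± 0.41) and Cldn3 (0.53 ± 0.22), which did not pass the test (adjusted p = 0.113, 0.1 and 0.101). How many of all probe sets separated in this way was not counted. Krt18 was lost without Gra clone 1 (0.164) or 2 (0.0671), or SMP clone 2 (0.0715) or 3 (0.0975), and in a fit to only these arrays 7 members were called.

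Among further epithelial genes, 9 of 18 were higher in SMP lines and 1 lower, with St14 at 1.49, Ap1m2 at 1.32, the protease inhibitor Spint2 at 1.15 and Elf3 at 1.12, and Krt7 was at 2.31. Other tight junction genes went largely the other way: of 14, Crb3 was higher (1.40) and 7 were lower, among them Magi1 (-1.39), Cgnl1 (-1.03), a cingulin-like junction protein, and the adhesion molecule Jam3 (-1.02). Fibroblast markers had 5 of 14 higher and 0 lower, with a mean of 7.74 ± 0.14 in SMP lines and 7.07 ± 0.32 in Gra lines. Extraembryonic endoderm markers had 5 of 12 lower and 0 higher, with means of 5.38 ± 0.33 in SMP and 6.87 ± 0.65 in Gra lines. The part of either in the members' differences was not tested.

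Gra lines of the 2 mice differed in 2 members at passage 4, 1 higher and 1 lower in mouse 2, where 2.81% of all probe sets were called higher, 3.69% lower and 6.49% in either direction. Krt19 was at 9.26, 8.96 and 8.37 in mouse 2, against 7.52, 7.03 and 7.86 in mouse 1 (1.39 ± 0.32, adjusted p = 0.00757), and Krt18 was at 9.47, 9.27 and 9.38, against 10.26, 10.72 and 11.21 (-1.36 ± 0.33, adjusted p = 0.0117). Neither gene overlapped between the mice. Nectin4 (5.13 ± 0.18 in mouse 2, 4.06 ± 0.20 in mouse 1), Cldn6 (9.10 ± 0.29 and 9.95 ± 0.24) and Cdh1 (11.75 ± 0.04 and 11.46 ± 0.18) did not overlap either and were not called. In a fit to only these arrays Nectin4 (1.07, adjusted p = 0.00439) and Cldn6 (-0.86, 0.018) were called. Nectin4 was also called with 1 probe set per gene (0.0454). Krt18 was lost without clone 3 of mouse 1 (0.0923) or clone 2 of mouse 2 (0.0505), and Krt19 without clone 2 of mouse 1 (0.0585) or clone 1 of mouse 2 (0.052). Of 12 extraembryonic endoderm markers 6 were lower in mouse 2 and 0 higher, with means of 5.15 ± 0.11 in mouse 2 and 6.87 ± 0.65 in mouse 1, and their part in these differences was not tested. With 1 mouse on each side, mouse and culture cannot be told apart.

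E-cadherin gave the flattest profile of the 10. Cdh1 group means ran from 11.38 ± 0.50 in T cell lines at passage 4 to 11.93 ± 0.18 in TTF lines at passage 4. With all arrays, none of its 17 differences in the first table was called. Without clone 3 of the Gra lines of mouse 2 at passage 16, T cell lines at passage 4 had 6 members called higher and 1 lower. The lower one was Cdh1, the only member with a negative difference there. At passage 10 they ran from 12.32 ± 0.03 in TTF lines to 12.59 ± 0.06 in Gra lines.

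Members differed in which of the others they followed. Over the 11 group means of the first table, which share origins, mice and 1 normalization, Cldn6 and Cldn7 had Pearson r = 0.92 and Spearman rho = 0.89, Cldn3 and Tjp3 had r = 0.91 and rho = 0.90, Krt8 and Tjp3 had r = 0.86 and rho = 0.81, Krt19 and Nectin4 had r = 0.86 and rho = 0.94, and Krt8 and Krt18 had r = 0.76 and rho = 0.78. The neighbours Cldn3 and Cldn4 had r = 0.13 and rho = 0.08. Cdh1 had negative r with 7 of the other 9 genes, down to -0.59 with Cldn6. Among 4378 genes whose group means spanned at least 1 log2 unit, those most like Krt8 were Stard8 (r = 0.92), Gabrp (0.89) and Mak (0.88), those most like Cldn7 were Laptm4a (0.98), Rassf1 (0.96) and Ccnl1 (0.96), and those most like Cdh1 were Abi1 (0.85), Map3k20 (0.83) and Thsd1 (0.78), all over the same 11 group means. Picking the highest of so many r over so few means can give high values by itself, and none was tested. Group means of Cdh1 ran only from 11.38 to 11.93.

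Probe sets of 1 gene gave like differences for Krt8, while the further Cldn3 probe set of the first table gave smaller ones. The further Krt8 probe set was higher in T cell lines at passage 4 by 1.11 ± 0.31 (adjusted p = 0.012) and lower in Gra lines (-1.51 ± 0.31, adjusted p = 0.000807), beside 1.06 and -1.41. It also fell in TTF lines with passage (-1.18 ± 0.38, adjusted p = 0.0449), where the probe set that stands for the gene was at -1.21 ± 0.40 (adjusted p = 0.051). The further Cldn3 probe set of the first table was not called in any of these comparisons: it was at 0.25 ± 0.15 in T cell lines (adjusted p = 0.294) and -0.13 ± 0.15 in Gra lines (adjusted p = 0.603) at passage 4, and at 0.42 ± 0.19 between passages in Gra lines of mouse 2 (adjusted p = 0.0769). These differences had the signs of the probe set that stands for Cldn3. The further one was dim, with group means of 4.29 to 4.77 beside a lower quartile of 4.46 in that table, which limits what it can show. The called Cldn3 differences of the first table therefore rest on 1 of its 2 probe sets. For Nectin4, the dim probe set was higher in SMP lines (0.65 ± 0.13, adjusted p = 0.000718) and was not called in T cell lines at passage 4 (adjusted p = 0.65). Cldn3 was read from different probe sets in the first and the second table, because the brightest of the second table is not paired with a gene in the probe list of the first.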

How the data were processed

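The values are log2 expression values that the authors deposited for Affymetrix arrays in 2 tables, 33 arrays (passages 4, 6 and 16) and 12 arrays (passage 10). RMA is named in the submitters' processing notes; the log2 scale was read from the values, which lie between 2.261 and 14.02 and between 2.734 and 15.18. The tables were normalized separately, so no comparison crosses them. Array control probe sets (64) were left out, and all 22626 others were kept. Probe sets with 1, several and no gene symbol numbered 18003, 287 and 4336 in the first table and 20380, 691 and 1555 in the second, and none was named from several.

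Groups were taken from the labels. In each table limma 3.58.1 (R 4.3.3) was fitted with 1 mean per group over all arrays, with eBayes and Benjamini-Hochberg adjustment over all probe sets, and calls were made at an adjusted p of 0.05. The procedure was tested on simulated data. The probe set with the highest mean stands for a gene. All 10 members are named, and of each other list up to 4 called genes of largest change per comparison. For Krt8, Cldn7 and Cdh1 the 3 genes with the highest Pearson r are given. Members and lists were chosen with earlier results of these data known. The number of arrays, 3 per group, limits the precision. Alternatives were quantile normalization, 1 probe set or the mean of probe sets per gene, removal of the dimmest probe sets, only the groups compared, the replicate number as a block (a fixed term at passage 10), and each array left out. Same-numbered arrays of the Gra lines deviated together (r from 0.169 to 0.384 over 2000 genes), a pairing read from the data and not from the labels, and their passage change was also fitted with clone number as a term, which changed no call. Python 3.11.15, numpy 2.4.6, pandas 2.3.3 and matplotlib 3.10.9 were used for sequences and plots.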

Additional observations from a re-analysis of the deposited data

Results flagged for a closer look

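For 3 genes the change between passages 4 and 16 differed between T cell lines and the mean of the other 3 origins of mouse 2, by a limma test of that difference. The change in T cell lines minus the mean change in the others was -1.733 on the log2 scale for Tjp3, -1.464 for Nectin4 and -1.214 for Krt18. Fibroblast markers fell in T cell lines over the same passages, and their part in these differences was not tested.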

How the results depend on the processing

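Of 53 called member differences, 28 were kept in every setting tried, and 0 values changed sign while called. In 5 settings other than leaving out arrays (quantile normalization, 1 probe set per gene, the mean of probe sets, removal of the dimmest probe sets, the replicate block) all 21 counts of called members stayed within 1.5 times. In Gra lines at passage 4, quantile normalization gave 1 member higher and 5 lower. At passage 10, removal of the dimmest probe sets left 9 members to test, and 7 were called in Gra lines. With only the groups compared in the fit, 5 of 17 counts moved: passage change in TTF lines 0 (2 with all groups), in Gra lines of mouse 2 1 (3), in Gra lines of mouse 1 1 (0), SMP against Gra lines 7 (4), and Gra lines of mouse 2 against mouse 1 4 (2). The T cell passage count was 4 (6). That fit uses fewer arrays. Leaving out 1 array in turn gave the following lowest and highest counts. Against other origins at passage 4 they were 4 to 8 for T cell lines (4 without clone 2, 8 without clone 3), 4 to 6 for Gra (4 without clone 1), 1 to 2 for B cell and 1 to 1 for TTF lines. At passage 10 they were 6 to 8 for Gra, 2 to 7 for TTF (2 without clone 1), and 0 to 0 for B cell and T cell lines. At passage 16 they were 0 to 2 for Gra lines (2 without clone 2) and 0 to 0 for the others. For passage they were 3 to 7 in T cell lines (3 without clone 1 of passage 4), 1 to 3 in TTF lines (3 without clone 2 of passage 4), 0 to 1 in B cell lines, 2 to 5 in Gra lines of mouse 2 (2 without clone 3 and 5 without clone 2 of passage 16), 0 to 1 in those of mouse 1 (1 without TTF clone 2 of passage 4), 2 to 5 over the mean (5 without that TTF clone) and 2 to 4 for the T cell difference. For SMP against Gra lines they were 3 to 5, and for Gra lines of mouse 2 against mouse 1 they were 1 to 3. Over 2000 genes, deviations of same-numbered arrays of 15 lines had a median r of 0.16 (-0.317 to 0.41). Of these lines, 9 had r over 0.1 and 8 matched their own number best. All 6 Gra lines were among the 9. T cell lines paired in part, with r of 0.41, -0.155 and 0.16 for clones 1, 2 and 3. In B cell lines only clone 2 had a positive r (0.132), and TTF lines had none. Beyond the replicate block, the passage changes of T cell, B cell and TTF lines were not fitted with clone number as a term. In the first table the replicate block was fitted with a correlation of 0.00564 within same-numbered lines. That fit was thus close to the main one, and its like counts could hardly have differed. At passage 10 the replicate number was instead a fixed term shared by all origins. With the replicate block, T cell lines at passage 4 again had 6 members called, Gra lines at passage 10 had 7 (8 without it; Nectin4 was lost) and the passage change in TTF lines had 3 (2 without it; Krt8 was added at 0.0498), and the other counts were equal. With clone number as a term within the Gra lines, chosen after seeing the data, the passage change again called 3 members in mouse 2 and 0 in mouse 1. The further probe set of Nectin4 lay below 4.46, the lower quartile of the first table, on all of its arrays, which limits what it can show.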
